A study of Mus musculus with 23 samples.

Results

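Mice that received FMT from donors dosed with alginate oligosaccharide (AOS) at 10 mg/kg (A10-FMT) were compared with mice that received FMT from vehicle-dosed donors (Con-FMT), in the second set of libraries that the sample codes distinguish (set 2). The comparison was between 6 libraries, 3 per group, whose column names carry the code of either group in that set. The series holds 23 libraries. The test took the spread between libraries from all 12 libraries of set 2, which include other groups. The comparison addresses what the AOS given to the donors changed in the recipients' small intestine, beyond what a transfer from donors without AOS did. All recipients were male ICR mice (an outbred stock), given busulfan, an alkylating drug that injures the intestinal lining, once at 40 mg/kg when 3 weeks old, so the controls carried this injury too. Con-FMT donors were dosed with ddH2O for 3 weeks, and A10-FMT donors with AOS at 10 mg/kg for as long. By the study's scheme, recipients were gavaged daily for 1 week, kept for another week, and sampled at 5 weeks of age, but the code of set 2 is not tied to a collection time in the sources used here. The luminal contents of each donor group were pooled, so all recipients of a group shared 1 inoculum, and a difference between the groups is also a difference between single pools. The sources used here do not say whether each library came from its own mouse or from pooled mice, and give no cages or litters, so p-values measure the spread between these samples, which may be technical.

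The lining of the small intestine renews itself continuously: stem cells in the crypts divide, and their daughters mature into absorptive enterocytes as they move up the villus. Mature enterocytes carry a brush border of microvilli with digestive enzymes and nutrient transporters on its surface, and they pack dietary fat into chylomicrons. The epithelium also keeps a set of antiviral genes at a level set by interferon, holds T cells between its cells, and keeps antimicrobial Paneth cells at the crypt base.

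The values were FPKM (fragments mapped to a gene, scaled by its transcript length and by the size of the library), of which each library summed to between 569522 and 592278, with 15983 to 16208 genes above 0. No read numbers accompanied them, so depth was unknown. The steps between low values gave a depth of 0.889 to 1 relative to the median library of set 2, from 11 to 17 genes per library. Only genes whose non-zero values lay within a factor of 1.5 entered, so larger differences in depth could not show. Correlations between the 6 libraries across genes ran from 0.979 to 0.988. Markers of the epithelium stood far above those of the tissue beneath it: the summed level of 6 enterocyte markers was 5371 to 6834 FPKM in Con-FMT and 3486 to 4774 FPKM in A10-FMT, whereas 3 smooth muscle markers summed to at most 0.03 FPKM, 3 fibroblast markers to at most 0.2 FPKM and 3 endothelial markers to at most 0.23 FPKM. In such bulk RNA, fewer cells of a type and less RNA per cell cannot be told apart.

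In set 2, 75 of the 11351 genes tested (0.661%) were called at an adjusted p under 0.05 by limma on log2(FPKM + 1), where 1 FPKM was added before taking logs, which understates the change of low genes. Of these, 66 (0.581%) were lower and 9 (0.0793%) higher in A10-FMT than in Con-FMT. The genes called lower included genes of the mature enterocyte, such as Fabp2, Anpep, Slc6a19 and Ada, and interferon-stimulated genes, such as Ifit1 and Ddx60. Their log2 changes ran from -1.38 to -0.26 with a median of -0.58, against a median of 0.05 over all genes tested. The 9 called higher changed less, with a median of 0.27. Among all tested genes the balance was the other way: 34.8% lay below 0, and of the 2271 genes at an unadjusted p under 0.05 (20.0%), 819 were lower (7.22%) and 1452 higher (12.8%). This balance turned on the scaling, with 925 lower and 1081 higher under quantile normalization and 1180 lower and 764 higher under trimmed-mean scaling, which brought the median of all genes from 0.05 to 0.03 and 0.0093. In all 66 genes called lower the 3 A10-FMT values lay below the 3 Con-FMT values, as they did in 8.26% of the genes tested, but this follows in part from the call. The adjusted calls depended on the other groups of set 2 and on single libraries. A fit of the 6 compared libraries alone gave 0 calls by limma (2048 at an unadjusted p under 0.05). Leaving out A10-FMT replicate 2 left 0 called genes by limma (1516 at an unadjusted p under 0.05), leaving out A10-FMT replicate 3 or Con-FMT replicate 2 left 3 each, and leaving out Con-FMT replicate 3 left 4, while 117 were called without A10-FMT replicate 1 and 403 without Con-FMT replicate 1. The 75 genes kept their sign and an unadjusted p under 0.05 in each of these fits, which follows in part from their selection on largely the same libraries. Within Con-FMT, replicate 1 held the lowest value for 51 of the 66 genes.

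**Figure D1:**
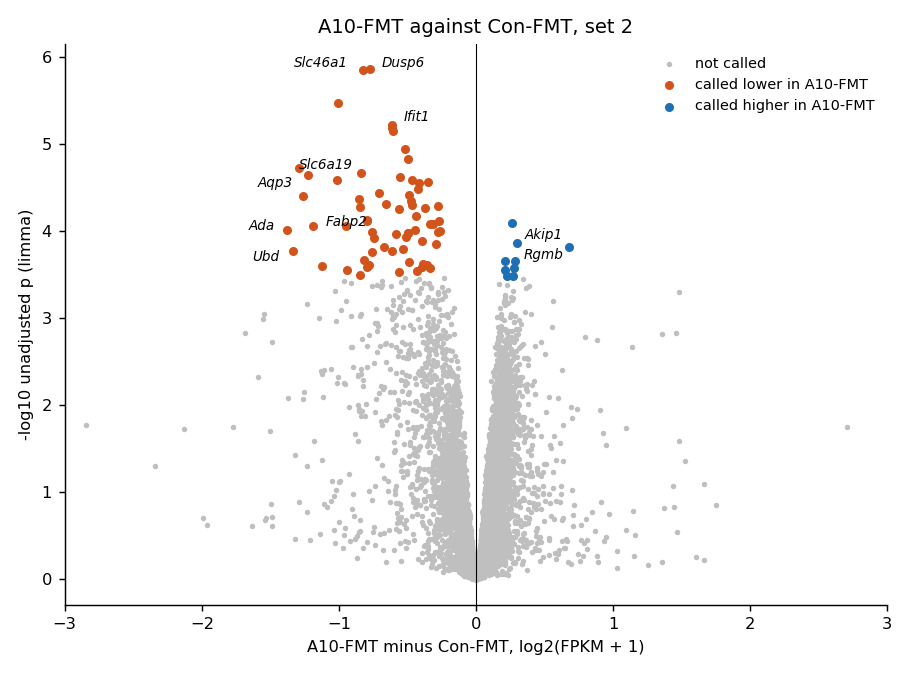
Change in A10-FMT against Con-FMT of set 2 for the 11351 genes tested, on the log2(FPKM + 1) scale (x axis), and the unadjusted p from limma as -log10 (y axis). The x axis is cut, and Rpl26 (log2 change -4.20, not called) lies outside it. Each point is a gene; the 66 called lower reach -1.38, while the 9 called higher stay within 0.68.

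Genes of fat uptake lay mostly below 0 in A10-FMT against Con-FMT. Among all genes tested, 34.8% lay below 0, 0.581% were called lower and 7.22% were lower at an unadjusted p under 0.05. Of 29 tested members of the list of fat uptake and chylomicron assembly, 4 were called, all lower, and 18 were lower at an unadjusted p under 0.05. Counted over the list, 26 lay below 0, and the median was -0.33 on the log2 scale. Fabp2, the fatty acid binding protein of the enterocyte, measured 1321.09, 1584.06 and 1647.03 FPKM in Con-FMT and 979.08, 809.3 and 834.91 FPKM in A10-FMT. All A10-FMT libraries were below all Con-FMT libraries, with a log2 change of -0.79 (SE 0.13, limma adjusted p 0.0271). In the saline-treated busulfan mice of the same set (Sa) its mean was 1600 FPKM, near that of Con-FMT. Slc27a4, which encodes a fatty acid transporter, fell from 187.29, 233.28 and 227.63 FPKM to 163.55, 141.9 and 152.19 FPKM (log2 change -0.50, limma adjusted p 0.0273). Apoc3, an apolipoprotein of triglyceride-rich particles, measured 160.72, 201.73 and 241.3 FPKM in Con-FMT and 125.44, 83.74 and 103.11 FPKM in A10-FMT, with a log2 change of -0.94 (SE 0.18, limma adjusted p 0.0458). The fourth called member was Sar1b, the GTPase that drives the export of chylomicrons from the endoplasmic reticulum. Its change was small but its libraries were tight, at 139.45, 142.82 and 138.05 FPKM against 119.94, 113.72 and 113.62 FPKM (log2 change -0.27, limma adjusted p 0.0228). Apoa1 and Apoa4, the main apolipoproteins that the intestine secretes, did not pass the threshold, although their groups did not overlap: Apoa1 ranged from 2030.64 to 2763.82 FPKM in Con-FMT and from 1029.61 to 1780.17 FPKM in A10-FMT (log2 change -0.79, limma adjusted p 0.0798), and Apoa4 from 862.27 to 1208.17 FPKM and from 404.68 to 723.54 FPKM (log2 change -0.96, limma adjusted p 0.0514). In Apoa1 and Apoa4 the lowest library was A10-FMT replicate 2.

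Enzymes of the brush border lay below 0 as well. All 20 tested brush-border disaccharidases and peptidases had a log2 change below 0, with a median of -0.41. Of these, 4 were called lower, and 14 were lower at an unadjusted p under 0.05, against 0.581% and 7.22% of all genes tested. Anpep (aminopeptidase N), the most abundant of them, measured 1553.28, 1874.47 and 1647.19 FPKM in Con-FMT and 1263.3, 1089.35 and 1107.5 FPKM in A10-FMT. The groups did not overlap, and the log2 change was -0.55 (SE 0.08, limma adjusted p 0.02). Dpp4, which removes dipeptides from the ends of peptides, was at 67.25 to 79.15 FPKM and 46.28 to 53.91 FPKM (log2 change -0.53, limma adjusted p 0.0344). Mep1b, the beta subunit of the protease meprin, was at 239.7 to 282.12 FPKM and 179.35 to 210.12 FPKM (log2 change -0.43, limma adjusted p 0.0461). The sugar-splitting enzymes were less clear. Among them, chosen after their values were seen, trehalase (Treh) did not overlap between the groups and had a log2 change of -0.62 (limma adjusted p 0.0783), whereas sucrase-isomaltase (Sis) overlapped, at 157.8, 241.31 and 277.02 FPKM against 155.61, 171.26 and 234.31 FPKM (log2 change -0.25, limma adjusted p 0.486). In the microvillus core, Cdhr2, a cadherin that links neighbouring microvilli, and Ezr (ezrin), which ties the membrane to actin, were called lower, with log2 changes of -0.45 and -0.26 (limma adjusted p 0.0273 each), and these were 2 of 23 tested members, whose median was -0.17 (-0.11 without Con-FMT replicate 3). Vil1 (villin), the actin-bundling protein that the study stained, measured 640.26, 720.89 and 741.39 FPKM in Con-FMT and 626.14, 593.97 and 607.04 FPKM in A10-FMT. The ranges lay next to each other without overlap, and the log2 change of -0.20 was not called (limma adjusted p 0.1).

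Among the carriers of amino acids and peptides, 4 were called, all lower. Slc6a19, the main apical transporter of neutral amino acids, measured 60.86, 84.85 and 61.08 FPKM in Con-FMT and 34.27, 40.75 and 37.98 FPKM in A10-FMT. The highest A10-FMT value was below every Con-FMT value, with a log2 change of -0.84 (SE 0.12, limma adjusted p 0.02). The mean of Sa was 67.5 FPKM and that of A100-FMT, whose donors had AOS at 100 mg/kg, was 51.2 FPKM. Slc15a1, the carrier of di- and tripeptides, was at 23.57 to 32.41 FPKM in Con-FMT and 15.62 to 18.91 FPKM in A10-FMT (log2 change -0.67, limma adjusted p 0.0331). Slc3a1, the partner subunit of the cystine carrier, was at 58.49 to 69.9 FPKM and 46.8 to 49.14 FPKM (log2 change -0.42, limma adjusted p 0.02). Slc7a7, part of the basolateral exit route for cationic amino acids, had a log2 change of -0.33 (limma adjusted p 0.0448). They were 4 of 18 tested members of the list, whose median was -0.25, with 14 below 0 and 10 lower at an unadjusted p under 0.05. Over all solute carriers by name, 11 of 225 tested were called (4.89%), all lower, against 0.581% of all genes tested called lower. At an unadjusted p under 0.05, 7.22% of all genes tested were lower.

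Other absorptive genes with large changes came from several routes. Slc46a1, the intestinal folate carrier, had the smallest adjusted p of the comparison together with Dusp6: it measured 28.69, 34.83 and 28.53 FPKM in Con-FMT and 18.09, 15.45 and 17.0 FPKM in A10-FMT (log2 change -0.82, SE 0.09, limma adjusted p 0.00799). Enpp7, the alkaline sphingomyelinase of the brush border, fell from between 77.08 and 117.02 FPKM to between 45.34 and 54.63 FPKM (log2 change -0.95, limma adjusted p 0.0273). Of 27 tested genes of ion and water transport, whose median was -0.17, the 3 called were Aqp3, Slc34a2 and Clca4b, all lower. Aqp3, a channel for water and glycerol, was at 6.81 to 12.12 FPKM and 2.66 to 3.87 FPKM (log2 change -1.26, limma adjusted p 0.0225). Slc5a12, a carrier of lactate and related acids, was at 5.72 to 9.81 FPKM and 1.9 to 3.52 FPKM (log2 change -1.29, limma adjusted p 0.02). Slc34a2, a phosphate carrier, stood at 36.69 to 41.97 FPKM and 25.25 to 25.91 FPKM, with little spread in A10-FMT (log2 change -0.60, limma adjusted p 0.0134). Enzymes of small-molecule metabolism were also found among the largest falls of called genes: Aldh4a1 of proline breakdown (log2 change -1.22, limma adjusted p 0.02), Acot12, which hydrolyses acetyl-CoA (-1.01, 0.0127), the retinol dehydrogenase Rdh9 (-0.85, 0.0228) and Aspa, which cleaves N-acetylaspartate (-0.84, 0.0228). Of 16 tested genes of sugar transport and fructose metabolism 0 were called by limma, 4 were lower at an unadjusted p under 0.05, and the median was -0.19 (-0.31 without Con-FMT replicate 1 and -0.12 without Con-FMT replicate 3). Genes that mark the proximal small intestine (median -0.38, 12 of 14 below 0, 6 lower at an unadjusted p under 0.05) and genes that mark its distal end (median -0.26, 14 of 14 below 0, 4 lower) were below 0 alike, and 0 of either were called by limma.

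The largest change among the called genes was in Ada (adenosine deaminase), an enzyme of purine breakdown that is abundant at the villus tip. It measured 37.68, 38.42 and 43.92 FPKM in Con-FMT and 19.69, 13.06 and 12.33 FPKM in A10-FMT. Every Con-FMT library was above every A10-FMT library, with a log2 change of -1.38 (SE 0.23, limma adjusted p 0.0273). The Sa mean was 18.9 FPKM, nearer to A10-FMT than to Con-FMT. Enpp3, which degrades extracellular nucleotides, was at 18.68 to 27.01 FPKM and 8.68 to 13.0 FPKM (log2 change -1.12, limma adjusted p 0.0448). Klf4, a transcription factor of the differentiated epithelium, was at 40.41 to 46.59 FPKM and 28.97 to 30.96 FPKM (log2 change -0.52, limma adjusted p 0.0187). These were the 3 called of 11 tested villus-tip purine and nucleoside genes, whose median was -0.35. Dnase1, which cuts DNA outside cells, fell from 123.91, 177.63 and 199.27 FPKM to 87.71, 60.69 and 68.39 FPKM (log2 change -1.19, limma adjusted p 0.0273). Dusp6, the phosphatase that switches off ERK signalling, measured 17.45, 15.82 and 14.92 FPKM in Con-FMT and 9.17, 8.44 and 9.34 FPKM in A10-FMT (log2 change -0.77, SE 0.08, limma adjusted p 0.00799).

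**Figure D2:**
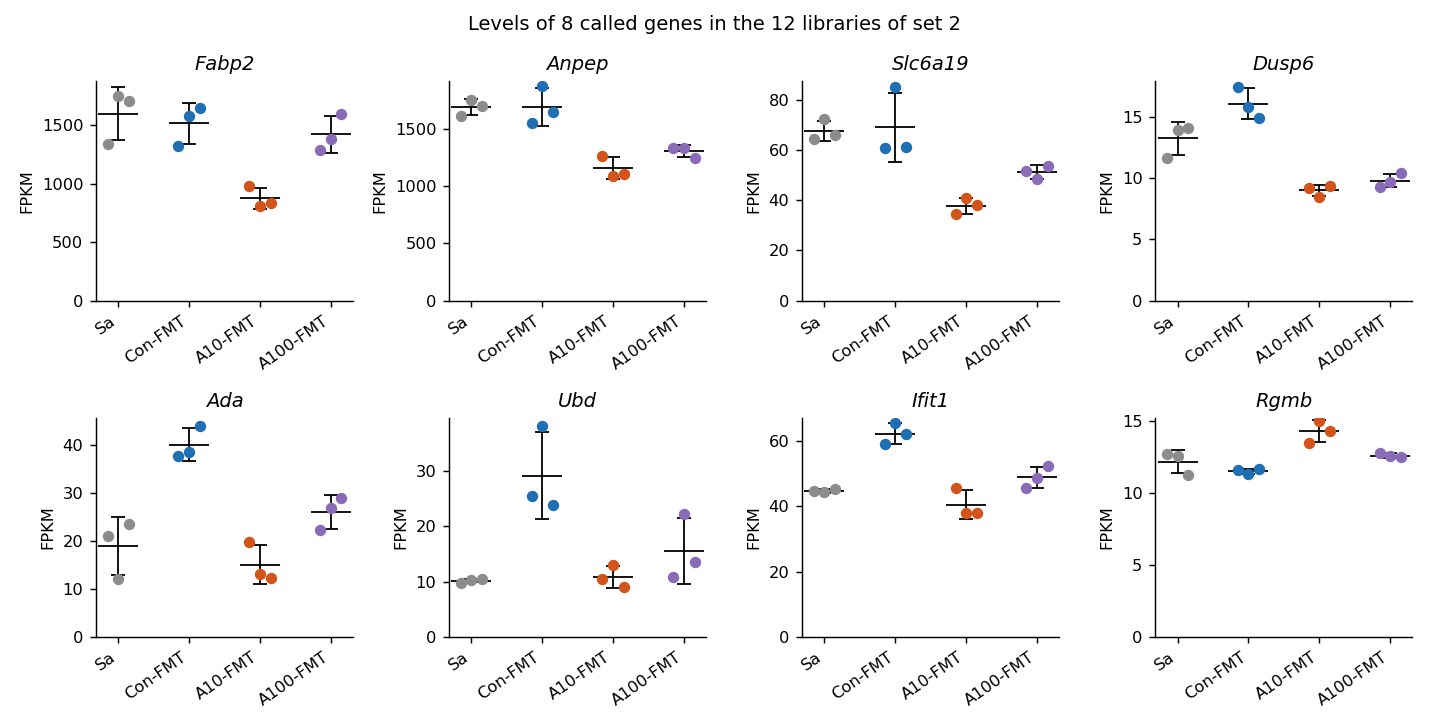
FPKM (y axis, from 0) of 8 genes called in A10-FMT against Con-FMT, in the 12 libraries of set 2 by group (x axis). Each point is a library, and the bars are the mean and SD of 3 libraries; Fabp2 in Sa (mean 1600) sits near Con-FMT, while Ada in Sa (mean 18.9) sits near A10-FMT.

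The genes called lower were also read in the Sa and A100-FMT libraries of the set. The comparisons share libraries with each other, so their values stand side by side only. In 62 of the 66 genes the A10-FMT mean was below the Sa mean, and in 48 the Con-FMT mean was above the Sa mean. Over the 66 genes the median log2 change was -0.45 for A10-FMT against Sa, where 43 were called lower (1.42% of all genes), and 0.10 for Con-FMT against Sa, where 3 were called higher (0.0969%). For A100-FMT against Con-FMT the median was -0.31 and 8 were called lower (0.3%), and for A100-FMT against A10-FMT 1 was called higher (0.00881%). For Anpep, for example, the mean was 1686 FPKM in Sa and 1304 FPKM in A100-FMT. The gene lists differed in their position relative to Sa. Brush-border enzymes had a median log2 change of -0.57 for A10-FMT against Sa and -0.11 for Con-FMT against Sa. For the antiviral genes these medians were 0.04 and 0.335, and for the interferon-inducible GTPases and Schlafens 0.28 and 0.50.

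Interferon-stimulated genes, which cells switch on against viruses, were the other group among the lower genes. Over all genes tested, 0.581% were called lower and 7.22% were lower at an unadjusted p under 0.05. Of 47 tested antiviral genes 6 were called, all lower, 33 were lower at an unadjusted p under 0.05, 44 lay below 0 and the median was -0.34. Because the promoters of such genes can hold a common sequence, the 250 bases before the start of 3 of them are printed, from RefSeq on GRCm38.p6. Capitals mark matches to the interferon-stimulated response element, searched as GAAANNGAAA on both strands. Ifit1 lies at chr19:34640639-34640888 (plus strand) with matches beginning 104 and 85 bases before the start, Ddx60 at chr8:61927837-61928086 (plus strand) with matches at 53 and 19 bases, and Trim30a at chr7:104465194-104465443 (minus strand) with a match at 36 bases, in 1 of its 2 windows.
Ifit1: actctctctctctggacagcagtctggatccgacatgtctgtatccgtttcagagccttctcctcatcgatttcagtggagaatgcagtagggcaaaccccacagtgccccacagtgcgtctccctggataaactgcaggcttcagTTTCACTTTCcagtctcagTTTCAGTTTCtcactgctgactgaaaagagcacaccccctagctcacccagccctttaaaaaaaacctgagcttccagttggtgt
Ddx60: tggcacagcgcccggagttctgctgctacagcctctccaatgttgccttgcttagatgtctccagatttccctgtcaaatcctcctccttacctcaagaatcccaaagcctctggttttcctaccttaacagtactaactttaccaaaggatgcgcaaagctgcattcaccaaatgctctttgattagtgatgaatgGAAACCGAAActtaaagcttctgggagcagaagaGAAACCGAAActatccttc
Trim30a: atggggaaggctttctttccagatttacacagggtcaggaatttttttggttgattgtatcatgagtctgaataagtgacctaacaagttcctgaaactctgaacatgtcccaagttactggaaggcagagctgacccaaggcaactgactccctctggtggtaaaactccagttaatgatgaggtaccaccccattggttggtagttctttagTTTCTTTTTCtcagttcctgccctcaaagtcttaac
Matches in the 300-base windows (250 before and 50 after the start) were found for 5 of the 6 antiviral genes called lower, 20 of 36 tested antiviral genes with a window (55.6%), 6 of 51 genes called lower with a window (11.8%) and 3.99% of all 27025 genes with one. The windows of Ifit1 and Ifit1bl2 overlap by 245 bases on opposite strands and share their matches. A match describes the letters only.

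Ifit1, which binds foreign RNA, measured 59.06, 65.63 and 62.09 FPKM in Con-FMT and 45.69, 37.84 and 38.08 FPKM in A10-FMT. The groups were well apart, with a log2 change of -0.61 (SE 0.07, limma adjusted p 0.0134), and the Sa mean was 44.7 FPKM, near A10-FMT. Ddx60, a helicase of the antiviral response, was at 40.71, 47.51 and 40.9 FPKM and at 33.24, 25.27 and 28.16 FPKM (log2 change -0.56, SE 0.09, limma adjusted p 0.0228). Trim30a, a ubiquitin ligase of the TRIM family, was at 39.11, 41.24 and 41.92 FPKM and at 32.77, 29.06 and 27.81 FPKM (log2 change -0.44, SE 0.07, limma adjusted p 0.0266). The other called members were Ifit1bl2, a close copy of Ifit1 with which it may share reads, at a log2 change of -0.80 (limma adjusted p 0.0271), the ligase Herc6 at -0.51 (0.0287) and Ddx58, the RNA sensor RIG-I, at -0.34 (0.0271). Isg15, a ubiquitin-like modifier named after its values were seen, ranged from 217.42 to 251.32 FPKM in Con-FMT and from 127.61 to 202.98 FPKM in A10-FMT without overlap, but was not called (log2 change -0.60, limma adjusted p 0.116). Ubd (FAT10), an interferon-inducible ubiquitin-like protein, showed the second largest fall among the called genes. It measured 25.45, 38.15 and 23.94 FPKM in Con-FMT and 10.46, 13.05 and 9.04 FPKM in A10-FMT (log2 change -1.33, SE 0.24, limma adjusted p 0.0352), with a Sa mean of 10.2 FPKM. H2-Q1, a non-classical MHC class I gene with close copies, was also called (log2 change -0.76, limma adjusted p 0.0273). The 30 tested genes of MHC class I, the immunoproteasome and peptide loading had a median of -0.04. That median ran from -0.10 to -0.02 as single libraries were left out. Of the 30, 2 were called, both lower, and 7 were lower and 0 higher at an unadjusted p under 0.05. Their summed level was 6464 to 6584 FPKM in Con-FMT and 5673 to 5938 FPKM in A10-FMT. Of 19 tested interferon-inducible GTPases and Schlafens 0 were called by limma, with 18 below 0, a median of -0.21 (-0.13 without Con-FMT replicate 1 and -0.33 without Con-FMT replicate 3) and 7 lower at an unadjusted p under 0.05. Among them was Slfn4, named after its values were seen, at 12.46, 11.05 and 18.36 FPKM against 7.77, 4.66 and 4.82 FPKM (limma adjusted p 0.0628).

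For enterocyte genes a different promoter element was searched. The element of HNF4, a transcription factor of the enterocyte, searched as CAAAGTNCA on both strands, was found in the windows of 2 of 51 genes called lower (3.92%) and 1.64% of all genes with a window. The 250 bases before the start of both are printed, Fabp2 at chr3:122894822-122895071 (plus strand, match beginning 137 bases before the start) and Slc3a1 at chr17:85028097-85028346 (plus strand, 39 bases), with the match in capitals.
Fabp2: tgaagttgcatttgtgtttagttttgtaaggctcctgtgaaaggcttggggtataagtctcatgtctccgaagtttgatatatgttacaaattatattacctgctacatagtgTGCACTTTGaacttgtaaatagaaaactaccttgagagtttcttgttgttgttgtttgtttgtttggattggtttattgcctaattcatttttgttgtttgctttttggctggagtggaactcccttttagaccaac
Slc3a1: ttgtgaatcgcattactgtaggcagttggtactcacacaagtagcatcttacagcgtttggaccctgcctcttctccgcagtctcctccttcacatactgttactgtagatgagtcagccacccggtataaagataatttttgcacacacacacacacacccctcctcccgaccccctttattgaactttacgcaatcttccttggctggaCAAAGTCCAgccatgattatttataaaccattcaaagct
The CDX element TTTATTG, named for the caudal factors of the intestine, was found in 4 of the 51 (7.84%) and in 5.33% of all windows, and the longer HNF1 element in 0 of the 51 and 0.0111% of all windows.

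Genes of intraepithelial and cytotoxic T cells had the lowest median of the lists with at least 10 genes tested, at -1.19 over the 10 tested of 41 found. All 10 were lower at an unadjusted p under 0.05, but 0 were called by limma. A member near the filter of 1 FPKM could pass it through high Con-FMT values, so the median and this count can lean to lower. Leaving out single libraries, the median ran from -1.59 to -0.86. Gzmb (granzyme B) measured 21.41, 46.48 and 56.23 FPKM in Con-FMT and 11.98, 11.68 and 10.18 FPKM in A10-FMT, with a log2 change of -1.68 (SE 0.40, limma adjusted p 0.0723). Gzma (granzyme A) measured 42.11, 94.8 and 128.1 FPKM and 27.89, 25.38 and 24.82 FPKM, with a log2 change of -1.59 (SE 0.45, limma adjusted p 0.103). Ccl5, a chemokine made by these cells, overlapped between the groups, at 12.15, 37.9 and 59.19 FPKM and 14.14, 10.34 and 10.56 FPKM (limma adjusted p 0.226). In all 3 genes the Con-FMT libraries were far apart, with replicate 1 nearest to A10-FMT and replicates 2 and 3 high, whereas the A10-FMT libraries were close together. The sum of the 3 T cell markers Cd3e, Cd8a and Gzma ran from 45.3 to 138 FPKM in Con-FMT and from 26.9 to 30.4 FPKM in A10-FMT, and its part in the enterocyte and interferon results was not tested. Of other blood cells, 3 B cell markers summed to at most 0.21 FPKM, whereas 3 erythroid markers varied more, from 4.53 to 38.8 FPKM in Con-FMT and from 1.09 to 3.68 FPKM in A10-FMT.

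**Figure D3:**
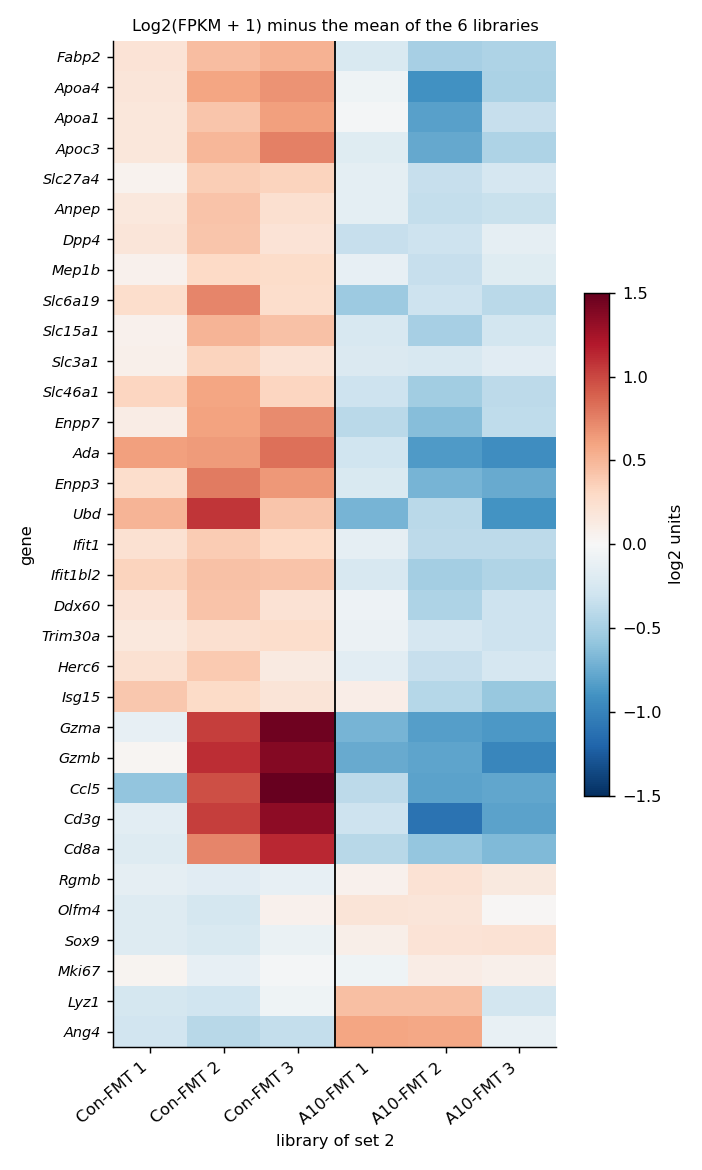
Level of 33 genes (rows) in the 6 libraries compared (columns), as log2(FPKM + 1) minus the mean of the 6 libraries (colour, in log2 units). In the T cell genes Gzma, Gzmb and Ccl5, Con-FMT replicate 1 (-0.12, 0.03 and -0.59) lies far below replicates 2 and 3. For Ccl5 these are at 0.97 and 1.6. In Ifit1 and Ada all 3 Con-FMT libraries are high.

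Genes of the crypt lay slightly above 0. Of 28 tested stem cell and Notch genes 24 were above 0, with a median of 0.17, and of 48 tested genes of proliferation and the cell cycle 46 were above 0, with a median of 0.15, against 0.05 for all genes tested. In these lists 12 and 24 members, respectively, had all A10-FMT values above all Con-FMT values, as did 17.0% of all genes tested, and 10 and 20 were higher at an unadjusted p under 0.05. The 1 gene called in these lists was Rgmb, a co-receptor of bone morphogenetic proteins, at 11.56, 11.31 and 11.66 FPKM in Con-FMT and 13.49, 15.01 and 14.29 FPKM in A10-FMT (log2 change 0.29, SE 0.05, limma adjusted p 0.0429). Sox9, a transcription factor of crypt cells, was at 5.83 to 6.49 FPKM and 7.5 to 8.28 FPKM without a call (log2 change 0.34, limma adjusted p 0.158), and Olfm4, the abundant stem cell marker, overlapped, at 375.43 to 470.73 FPKM and 456.36 to 514.8 FPKM (limma adjusted p 0.25). Of the other genes called higher, Setd1a and Ehmt1 encode histone methyltransferases and Wdr5 a subunit of methyltransferase complexes, with log2 changes of 0.21, 0.22 and 0.22. Aadac, a lipid deacetylase, was at 55.44 to 62.48 FPKM in Con-FMT and 70.25 to 74.87 FPKM in A10-FMT. Its log2 change was 0.27 (limma adjusted p 0.0448), and its Sa mean was 72.5 FPKM, near A10-FMT. Akip1, a partner of protein kinase A, was at 12.22 to 12.76 FPKM in Con-FMT and 14.98 to 16.11 FPKM in A10-FMT. Its log2 change was 0.30 (limma adjusted p 0.0319), and its Sa mean was 13.1 FPKM, nearer to Con-FMT. The kinase genes Pkdcc and Pkn3 (log2 changes 0.26 and 0.27) and a transcript without a symbol (0.68) completed the 9.

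As a reference for the lists that follow, 12.8% of all genes tested were higher at an unadjusted p under 0.05, and 34.8% lay below 0. All 29 tested genes of sterol and fatty acid synthesis were above 0 (median 0.16), with 2 higher at an unadjusted p under 0.05 and 0 called by limma. Their median was 0.25 without Con-FMT replicate 1 and 0.09 without Con-FMT replicate 3. Of 54 tested cytosolic ribosomal protein genes 50 were above 0 (median 0.16), with 31 higher at an unadjusted p under 0.05 and 0 called by limma. Their log2 changes ran from -4.20 (Rpl26) to 0.85 (Rps7). Paneth cell genes had the highest median of the lists with at least 10 genes tested, at 0.42 with 24 of 27 above 0, of which 3 were higher at an unadjusted p under 0.05 and 0 were called by limma. Lyz1 (lysozyme) measured 2428.93, 2366.65 and 2794.53 FPKM in Con-FMT and 4000.97, 3999.76 and 2421.8 FPKM in A10-FMT, so A10-FMT replicates 1 and 2 were high and replicate 3 was at the Con-FMT level. Ang4, an antimicrobial ribonuclease, was at 676.71 to 742.67 FPKM in Con-FMT and at 1362.36, 1355.09 and 834.34 FPKM in A10-FMT (log2 change 0.70, limma adjusted p 0.15), with the same library lowest. The list median was 0.17 without A10-FMT replicate 1 and 0.55 without A10-FMT replicate 3. Defensin genes of this list are near-identical copies, so single members are uncertain.

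Genes of cell junctions, which the study examined as proteins, held no call in either direction, where 0.661% of all genes tested were called. At that share, 0 calls in lists of this size say little about their genes. At an unadjusted p under 0.05, 7.22% of all genes tested were lower and 12.8% higher. Of 24 tested tight junction genes 0 were called by limma, with 2 lower and 3 higher at an unadjusted p under 0.05 and a median of -0.02 (-0.02 to -0.0039 leaving out single libraries). Of 17 tested cell adhesion molecules outside the junctions and the MHC 0 were called by limma, with 4 lower and 4 higher at an unadjusted p under 0.05 and a median of 0.04 (0.01 to 0.07 leaving out single libraries). Adherens junction, desmosome and gap junction genes had a median of 0.03 that turned below 0 with trimmed-mean scaling, and 0 of 23 were called by limma (1 lower and 2 higher at an unadjusted p under 0.05). Tjp1 (ZO-1) was at 19.87 to 20.66 FPKM in Con-FMT and 20.22 to 22.16 FPKM in A10-FMT (log2 change 0.08, SE 0.08, limma adjusted p 0.61), and Cdh1 (E-cadherin) at 234.49 to 249.54 FPKM and 243.52 to 256.94 FPKM (log2 change 0.05, SE 0.05, limma adjusted p 0.618). Among the claudins, Cldn4 overlapped at 8.79, 11.48 and 16.18 FPKM and 10.17, 6.44 and 6.63 FPKM (log2 change -0.58, limma adjusted p 0.172), and so did Cldn15, the pore-forming claudin of the small intestine, at 336.98 to 386.34 FPKM and 227.42 to 354.86 FPKM (log2 change -0.30, limma adjusted p 0.238). Of the transcription factors the study blotted, Sox4 was at 6.86 to 9.92 FPKM and 10 to 10.55 FPKM (log2 change 0.34, limma adjusted p 0.149). Of the 10 tested genes of proteins the study stained or blotted, 0 were called by limma, 8 lay above 0, and 1 was lower (Vil1) and 1 higher (Sox4) at an unadjusted p under 0.05.

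**Figure D4:**
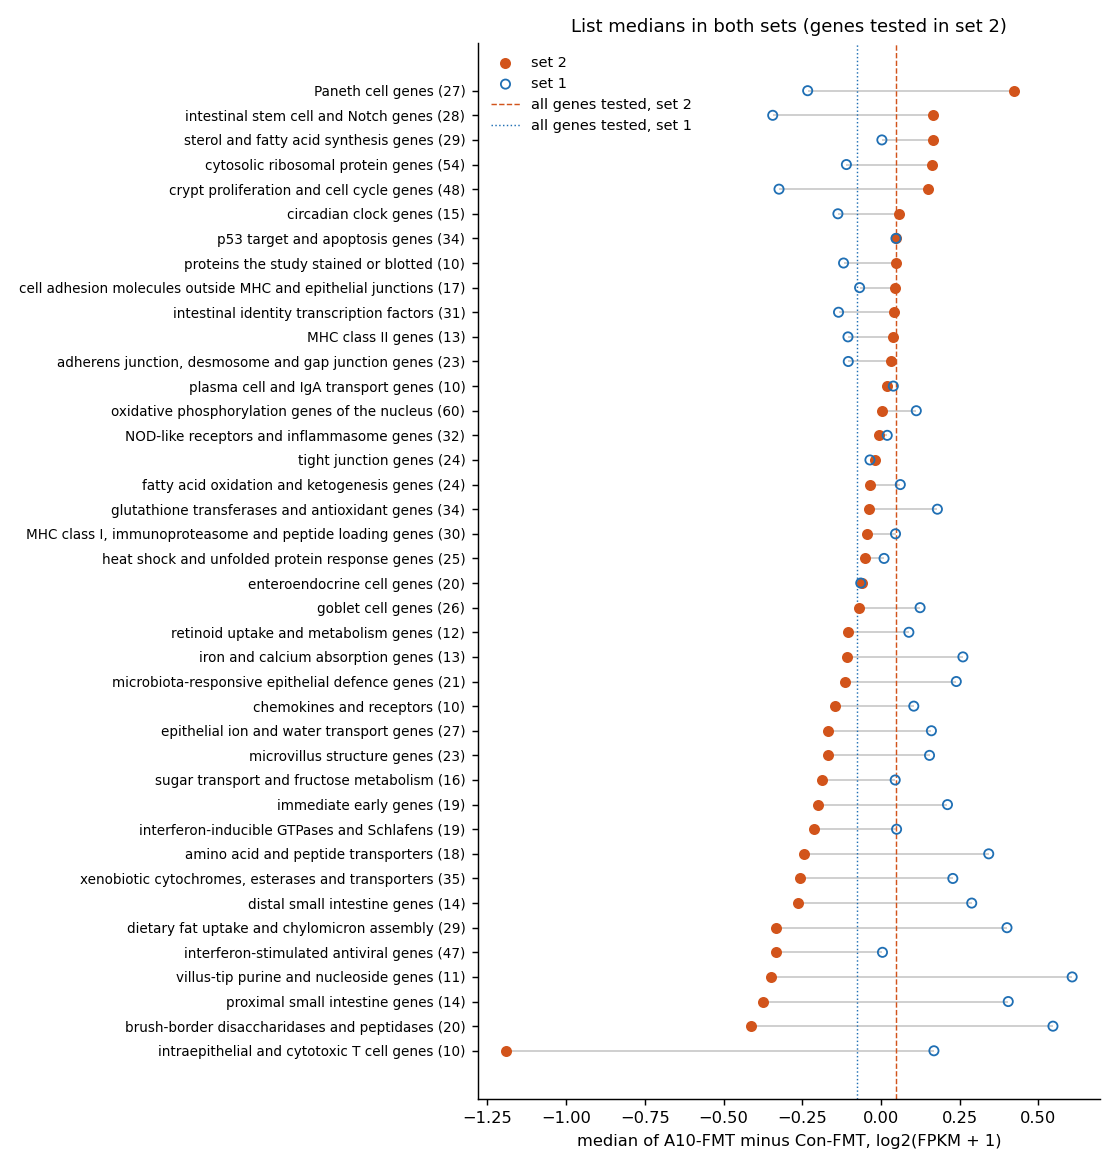
Median log2 change of A10-FMT against Con-FMT on the log2(FPKM + 1) scale (x axis) for 40 gene lists with at least 10 genes tested (y axis, number tested in parentheses), in set 2 (filled) and set 1 (open); dashed and dotted lines are the medians of all genes tested. Brush-border, fat uptake and amino acid carrier lists lie at -0.41, -0.33 and -0.25 in set 2 and at 0.55, 0.40 and 0.34 in set 1.

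The same contrast was measured in set 1 on other libraries, 3 per group, and most genes called in set 2 changed the other way there. In set 1, 3094 of 11325 genes (27.3%) were called, 2212 lower (19.5%) and 882 higher (7.79%) in A10-FMT. Of the 66 genes called lower in set 2, 63 lay above 0 in set 1, where 35.6% of all genes did, and 54 were called higher. Of the 9 called higher in set 2, 7 lay below 0 in set 1 and 4 were called lower. The difference itself was tested as an interaction over the 12 libraries of both groups in both sets. It was called for 64 of the 66 and 7 of the 9. These counts follow in part from the selection of the genes on the same libraries of set 2. Over all genes the difference was called for 3624 of 11325 (32.0%), of which 1022 had the lower change in set 2 and 2602 the higher. This split turned on the scaling, with 1079 and 1516 under quantile normalization and 1547 and 1155 under trimmed-mean scaling. These brought the median difference of all genes from 0.13 down to 0.05 and 0.02, respectively. Fabp2 showed the reversal in full: in set 1 it measured 1213.91, 1224.09 and 1295.75 FPKM in Con-FMT and 2508.38, 2446.23 and 2986.62 FPKM in A10-FMT (log2 change 1.08), and the difference of the changes was -1.88 (limma adjusted p 0.000341). The list medians turned too, from -0.41 in set 2 to 0.55 in set 1 for brush-border enzymes, of which 16 of 20 were called for the difference, and from 0.15 to -0.32 for proliferation, of which 41 of 48 were. For the antiviral genes the median in set 1 was 0.0046 and 19 of 47 were called for the difference. Of the 6 antiviral genes called lower in set 2, only Ifit1bl2 was called in set 1, where it was higher (log2 change 0.63). Ifit1 (log2 change 0.13), Herc6 (0.18), Ddx60 (0.03), Ddx58 (-0.04) and Trim30a (-0.18) were not called there. Rgmb, higher in set 2, was called lower in set 1 (log2 change -0.39). The sample records distinguish the sets by their code alone, so what else differed between them was not tested. Whether the sets held different mice was not given, and the interaction took the 12 libraries as independent.

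**Figure D5:**
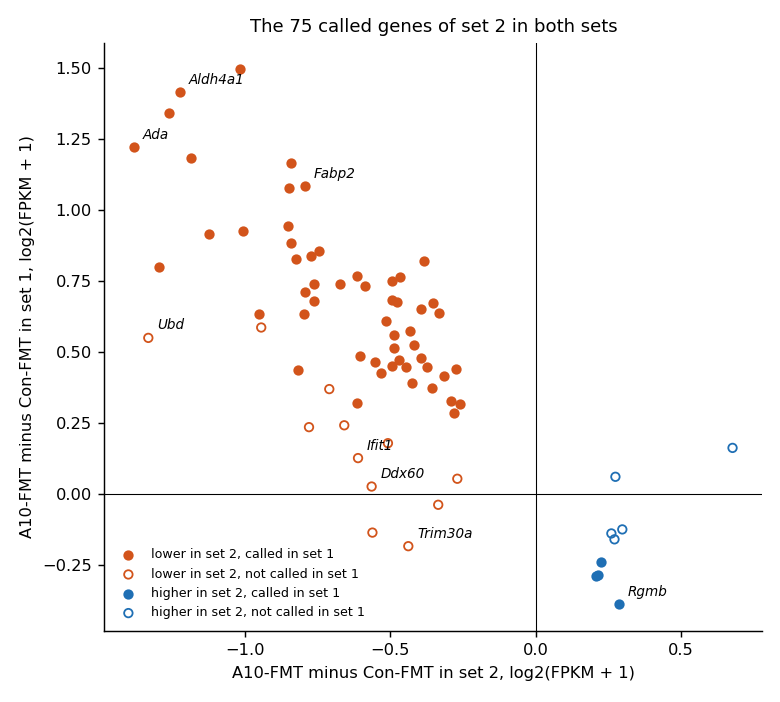
Change in A10-FMT against Con-FMT in set 2 (x axis) and in set 1 (y axis), both on the log2(FPKM + 1) scale, for the 75 genes called in set 2; filled points were called in set 1 too. Most genes fall in the upper left, lower in set 2 and higher in set 1, with Trim30a among the 3 genes below 0 in both.

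Ratios of group means were counted as well. With 1 FPKM added to both means, 57 genes were at least 2-fold lower and 27 at least 2-fold higher in A10-FMT. Of these, 28 and 5 had groups that did not overlap.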

How the data were processed

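TRIzol-extracted total RNA of mouse small intestine was run by the authors on a HiSeq instrument, and they describe conversion of read numbers to RPKM. The deposited table holds FPKM values with 2 decimals, 1 column per library; the aligner and annotation are not given in the sources used here, and 1 column matching no sample was not used. Without read numbers, depth and its precision were unknown, and the authors' read-number test could not be repeated.

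Symbols were found for 17725 of the 17842 entries listed by NCBI Gene number. The 12 libraries of set 2 were fitted as log2(FPKM + 1) in limma 3.58.1 (R 4.3.3) with 1 mean per group and a trended prior, on genes averaging 1 FPKM or more. P-values are two-sided and Benjamini-Hochberg adjusted over all genes tested, with a threshold of 0.05. The difference between sets was an interaction over 12 libraries. Alternatives were another pseudocount, filter, scaling, set of libraries, a replicate block, quality weights, an adjustment for GC content and length (GENCODE M21), and leaving out each library. The fit was tested on simulated data. Gene lists were described by counts and medians, without a set test. Tables and plots were made with Python 3.11.15, numpy 2.4.6, pandas 2.3.3 and matplotlib 3.10.9. Promoters came from RefSeq (GRCm38.p6), with a window for 8613 of the tested genes.

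The comparison, lists and tests were chosen with earlier results of these data known. Genes were named if the study stained or blotted the protein, if a claudin, if among the 15 largest called changes in a direction, among the 3 most abundant, the called or the extreme members of a list, or among the 6 smallest adjusted p of the interaction; others are marked as named after their values were seen. The result of 1 called gene is not reported here.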

Additional observations from a re-analysis of the deposited data

Results flagged for a closer look

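The change of A10-FMT against Con-FMT differed between set 2 and set 1 for 3624 genes by the interaction in limma. Among the genes called in set 2, this held for 64 of those lower and for 7 of those higher. Their selection on the same libraries of set 2 accounts for these counts in part. The 6 genes with a symbol and the smallest adjusted p for this difference were Sar1b, Rdh9, Fabp2, Pdlim2, Dusp6 and Slc7a7, with set 2 minus set 1 differences on the log2(FPKM + 1) scale of -0.71, -1.79, -1.88, -1.68, -1.61 and -0.97. In each the change was below 0 in set 2 and above 0 in set 1. Pdlim2, an adaptor of the actin cytoskeleton, was the one of these that was not called in set 2 alone, at 25.34, 27.21 and 30.29 FPKM in Con-FMT and 16.57, 14.36 and 16.75 FPKM in A10-FMT (log2 change -0.76) against 0.92 in set 1. What distinguishes the sets beyond their code was not tested.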

How the results depend on the processing

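The 75 genes called in set 2 kept their sign in every fit that tested them, which follows in part from their selection on the same libraries. The number passing the adjusted threshold moved. Called genes (and of these lower, higher) numbered 43 (38, 5) with every gene above 0 tested, 132 (110, 22) with a mean of at least 5 FPKM, 139 (134, 5) with trimmed-mean scaling, 193 (154, 39) with the GC content and length adjustment, 595 (356, 239) with array quality weights and 43 (42, 1) in a fit of all 23 libraries. Quantile normalization called 103 lower. The 6 libraries compared alone gave 0 calls by limma (0 lower, 0 higher; 2048 at an unadjusted p under 0.05). Leaving out 1 library gave 0 to 403 calls, of which 0 to 292 were lower and 0 to 111 higher. With the replicate block 36 were called (35 lower, 1 higher). Deviations of same-numbered Con-FMT and A10-FMT libraries had correlations of -0.36, 0.15 and -0.23. Over all groups of set 2 such correlations ran from -0.36 to 0.33. With 3 libraries per group they cannot show whether a number marks a shared litter, day or batch, which was not given.

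Called list members numbered 17 with every gene above 0, 51 at 5 FPKM, 60 with the GC content and length adjustment, 16 with the replicate block, 148 with weights, 0 by limma in the 6 libraries alone, 18 with 23 libraries and 0 to 118 leaving out 1 library. For the difference between the sets, calls with the higher change in set 2 were 1516 under quantile normalization. Trimmed-mean scaling gave 1155 higher and 1547 lower. All 23 libraries gave 2354 calls, 1594 of them higher. Leaving out 1 library gave 2514 to 3750 (772 to 1104 lower, 1741 to 2646 higher).

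Ratios of at least 1.5 numbered 268 (202 lower, 66 higher), 2-fold ratios with 0.1 FPKM added 149 (107, 42) and those without overlap 33 (28, 5). Leaving out 1 library gave 84 to 114 (45 to 88 lower, 26 to 47 higher). The causes were not tested. Depth was unknown, so no floor can be given for a low value.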

Other observations

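Genes that handle drugs and foreign compounds lay mostly below 0 in A10-FMT against Con-FMT of set 2. Among all genes tested, 34.8% lay below 0, and 7.22% were lower and 12.8% higher at an unadjusted p under 0.05. Of 35 tested xenobiotic cytochromes, esterases and transporters, 29 lay below 0, 18 were lower and 1 higher at an unadjusted p under 0.05, with a median log2 change of -0.26 in set 2 and 0.23 in set 1. The called member was Ces2c, a carboxylesterase with close copies, at 196.71, 222.45 and 194.7 FPKM in Con-FMT and 148.6, 137.45 and 156.96 FPKM in A10-FMT (log2 change -0.47, limma adjusted p 0.02). Of 19 tested immediate early genes 8 were lower at an unadjusted p under 0.05, and the called members were Dusp6 and Klf4.

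The shares of all genes tested at an unadjusted p under 0.05 were 7.22% lower and 12.8% higher. Among 26 tested goblet cell genes, which make and pack mucus, 7 were lower at an unadjusted p under 0.05 and 0 were called by limma. Their medians were -0.07 in set 2 (-0.11 without A10-FMT replicate 1 or replicate 3) and 0.12 in set 1. Of 20 tested enteroendocrine genes 7 were lower at an unadjusted p under 0.05 and 0 were called by limma, with medians of -0.06 in set 2 and in set 1, of which the former ran to -0.18 without A10-FMT replicate 1 and lay between -0.17 and -0.09 when any other compared library was left out. Targets of p53, the transcription factor that answers DNA damage, had, together with apoptosis genes, 3 lower and 3 higher of 34 tested at an unadjusted p under 0.05 and 0 called by limma, with medians of 0.05 in set 2 (0.0094 without A10-FMT replicate 2, 0.02 without Con-FMT replicate 2 and 0.03 without Con-FMT replicate 3) and 0.05 in set 1.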
